A study of Selaginella kraussiana with 4 samples.

Results

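The microphyll of *Selaginella kraussiana* was compared with the rhizophore tip across the transcribed loci of the draft genome. *S. kraussiana* is a spikemoss, a member of the lycophytes. The microphyll, its small leaf with an unbranched vein, is the main photosynthetic organ of the plant. The rhizophore is a leafless axis that arises at the branch points of the shoot, grows downward and bears the roots, and its tip holds dividing cells. The comparison therefore set a photosynthetic organ against a growing tip that forms the root-bearing axis.

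A total of 4 RNA libraries were sequenced, 1 from each tissue, from plants kept in a greenhouse or growth chamber under long-day light. The microphyll library carries the deposited label leaf and the rhizophore tip library the label rhizophore. The other libraries, labelled seedling and stem, are called the shoot tip and the stem here, after the tissues listed in the study. That the library labelled seedling is the shoot tip was inferred by elimination, since no label states it. No genotype or treatment separated the plants, and the number of plants behind each library is not given in the sources used here. The tables hold no gene names, so no tissue could be checked against its marker genes, and loci are named by contig and position (counted from 1) on the authors' draft assembly. The strand and the exon structure of a locus are not given in the tables.

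Loci of the 4 tables that shared at least 1 bp were joined into 31210 merged loci. Of these, 23081 on 20180 contigs were kept, because they were at least 300 bp long and reached an FPKM (fragments per kilobase of transcript, scaled to the fragments of the library) of at least 1 in the microphyll or the rhizophore tip. The difference was log2(FPKM + 1) in the microphyll minus log2(FPKM + 1) in the rhizophore tip, and a locus was counted as higher or lower in the microphyll at a difference of at least 2 or at most -2, about 4-fold at high FPKM and more at low FPKM. With 1 library a side, there is no replicate check and no p-value. Intervals are the 95% bounds of the deposited tables and cover counting error and the uncertainty of the authors' model, not differences between plants. In whole tissues, fewer cells of a type and less RNA per cell cannot be told apart.

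The libraries were of like depth. The bounds imply about 53200000 fragments for the microphyll library, 49800000 for the rhizophore tip, 58100000 for the shoot tip and 47200000 for the stem. The median listed locus rested on between 151 fragments (microphyll) and 187 fragments (shoot tip). These numbers assume that each bound lies 2 Poisson standard deviations from its FPKM, and they are understated where the authors' model added variance. They are not the sequenced totals, which the study states as several-fold higher numbers of reads for each library.

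The microphyll and the rhizophore tip differed past the size at 20.6% of the loci. Of the 23081 kept loci, 2113 (9.15%) were higher in the microphyll and 2649 (11.5%) were lower. Of these 4762 loci, 1328 higher and 1589 lower ones were listed in both libraries, and for 2843 of those the intervals did not overlap. The others were listed in only 1 of the 2 libraries, so there was no second interval to compare. The median difference over all kept loci was -0.13, with quartiles of -1.13 and 0.90. At a difference of at least 6 there were 67 loci higher and 122 lower in the microphyll. The split between the directions depended on the scaling. After scaling to TPM, a unit in which the values of each library sum to the same total, 2279 loci were higher and 588 lower in the microphyll, so that 79.5% of the loci past the size were higher, against 44.4% with FPKM. In TPM, 17286 loci passed the minimum of 1, and the pseudocount of 1 weighs more, so the filter and the pseudocount changed along with the scaling. With the 23081 loci and the weight of the pseudocount kept, and the summed FPKM of the libraries made equal, 4411 loci were higher and 1505 lower in the microphyll, 74.6% of them higher, and the median difference was 0.79. The FPKM values of the whole table summed to 3861860 in the microphyll and to 7976761 in the rhizophore tip, a log2 ratio of the scaling factors of 1.05. That ratio was 0.05 when scaling to the sum over merged loci of at least 300 bp, and 0.13 with median-of-ratios factors. Over the kept loci alone, the FPKM summed to 1107473 in the microphyll and to 1143826 in the rhizophore tip. The gap between the whole-table sums thus lay in merged loci under 300 bp, which were not kept. These loci set the factors of TPM and of equal summed FPKM.

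Other pairs of tissues showed fewer loci past the same size on the FPKM scale. The microphyll had 14.3% of loci past it against the stem and 13.9% against the shoot tip. For the stem the share was 13.1% against the rhizophore tip and 11.9% against the shoot tip. The lowest share, 10.4%, was that of the shoot tip against the rhizophore tip. Each pair shares a library with others, and with 1 library per tissue these shares were not tested against each other. The 20.6% includes loci listed in only 1 of the 2 libraries, and it was 11.1% in the narrower matched-span set described below. No such narrower share was computed for the other pairs.

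The largest differences often came from short listed loci. On contig 044188 (1-404), which had the highest difference among loci listed in both libraries, the FPKM was 22324 in the microphyll (interval 7910 to 36739), against 1.36 in the rhizophore tip (0.632 to 2.08). The microphyll value belonged to a listed locus of 92 bp with about 9.59 implied fragments, whereas the rhizophore tip value belonged to a locus of 404 bp with 14.0. On contig 056902 (315-3424), the lowest difference, the FPKM was 9.65 in the microphyll, from a locus of 3110 bp, against 26776 in the rhizophore tip, from a leading locus of 94 bp. Both contigs thus compared listed loci of very different length. Among the 10 highest differences, 7 had a leading microphyll locus under 300 bp, and among the 10 lowest, 9 had such a short rhizophore tip locus. Over all kept loci, the leading listed locus of either library was under 300 bp in 1323 (5.73%). On the side with the higher level, such a short locus led in 10.4% of the loci higher in the microphyll and 9.97% of those lower. At a difference of at least 8 the shares were 13 of 21 loci (61.9%) higher and 14 of 26 loci (53.8%) lower in the microphyll.

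**Figure D1:**
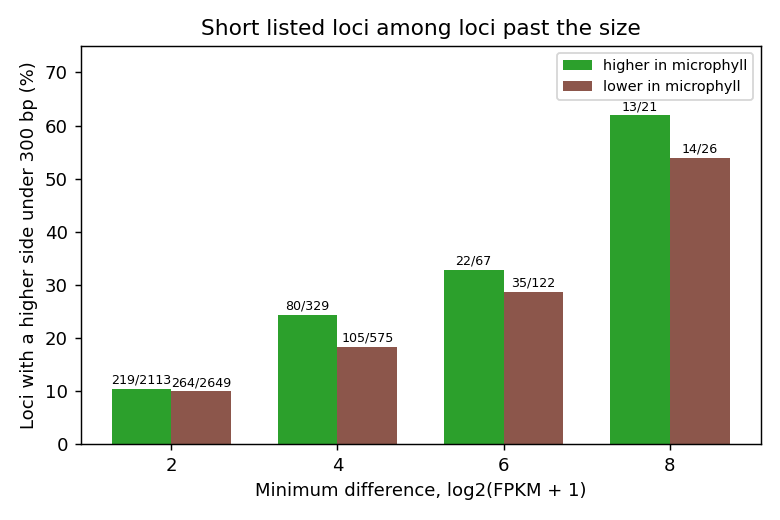
Share of loci past a minimum difference (x axis, in log2(FPKM + 1), either direction) whose leading listed locus in the library with the higher level is under 300 bp (y axis, %), with the number of such loci over the number past the size above each bar. The share was 10.4% (higher in the microphyll) and 9.97% (lower) at a difference of 2, and 61.9% and 53.8% at a difference of 8.

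A narrower set was therefore taken after these values were seen. Matched-span loci have 1 listed locus in each of the 2 libraries, both at least 300 bp long with a lower bound above 0, and their spans overlap by at least 80%. There were 10640 such loci, with a median of 374 implied fragments in the microphyll and 389 in the rhizophore tip, and the half-width of the interval had a median of 10.3% and 10.1% of the FPKM. Among them, 511 (4.8%) were higher in the microphyll and 666 (6.26%) were lower, together 11.1%. The intervals lay apart for all 1177 of these and for 8088 (76.0%) of the matched-span loci of any difference. At a difference of at least 6, 8 matched-span loci were higher and 6 were lower in the microphyll. In TPM, with 8803 loci past the filter, 850 were higher and 116 lower, and the share of higher loci was 88.0% instead of 43.4%. With equal summed FPKM over the same 10640 loci, 1476 were higher and 232 lower (86.4% higher). With median-of-ratios factors, 583 were higher and 570 lower. Which direction held more loci thus changed with the scaling, narrowly with median-of-ratios factors. The large changes came with TPM and equal summed FPKM, whose factors include the loci under 300 bp that were not kept. Across the matched-span loci, the Spearman correlation between the microphyll and the rhizophore tip was 0.77, against 0.69 over all kept loci, as a description over loci that share 2 libraries.

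**Figure D2:**
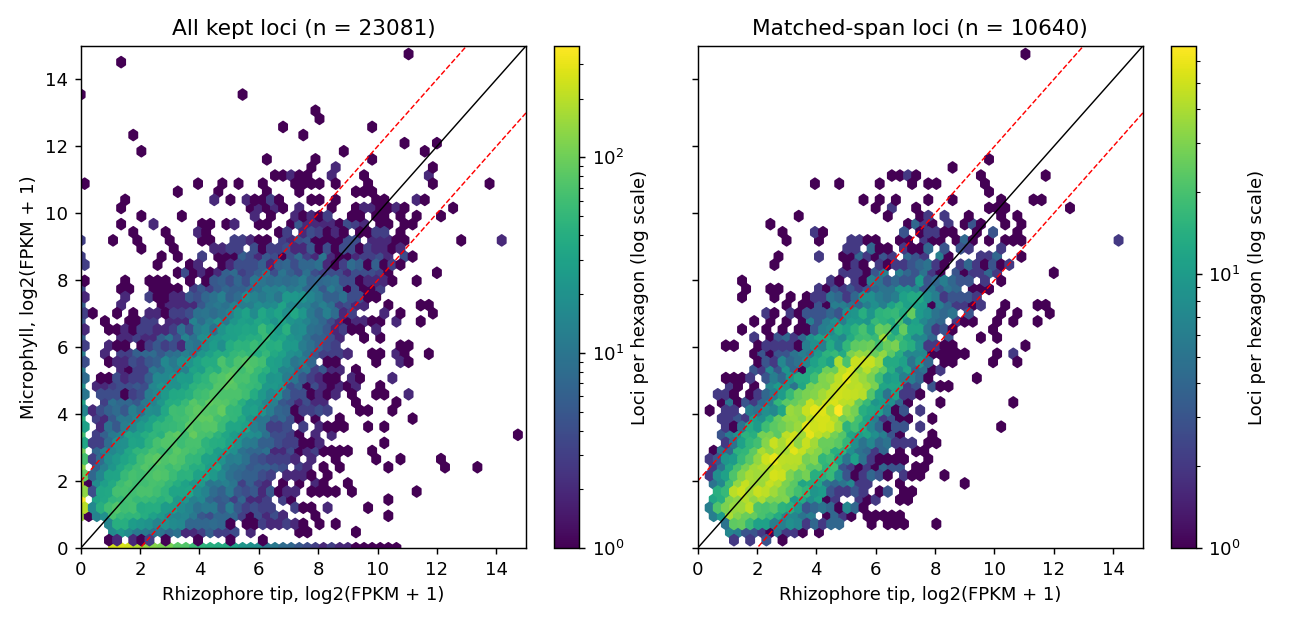
Level of each locus in the microphyll (y axis) against the rhizophore tip (x axis), both as log2(FPKM + 1), for all 23081 kept loci (left) and the 10640 matched-span loci (right). Colour gives the number of loci per hexagon on a log scale, the solid line marks equal levels and the dashed lines a difference of 2 and -2. Points along the axes of the left plot are loci listed in only 1 of the 2 libraries, and the points farthest from the solid line are absent from the right plot.

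The matched-span loci with the highest differences had a high FPKM in the microphyll and a low one in the rhizophore tip. The locus on contig 068480 (1-385) had an FPKM of 868 in the microphyll (interval 849 to 886), against 4.22 in the rhizophore tip (2.78 to 5.67), which is 205-fold higher with an interval of 147 to 287. Its FPKM was 1470 for the shoot tip and 88.9 for the stem. This locus was strongest in the shoot tip library and weakest in the rhizophore tip. The locus on contig 046896 (499-1231) had an FPKM of 1783 in the microphyll, against 13.3 in the rhizophore tip, 134-fold higher (117 to 154), with 157 for the shoot tip and 336 for the stem. On contig 098495 (1-990), the FPKM was 999.6 in the microphyll, against 9.27 in the rhizophore tip, with 164 for the shoot tip and 247 for the stem. Contig 081819 (1-836) had 694 FPKM in the microphyll, against 5.78 in the rhizophore tip, with 135 for the shoot tip and 105 for the stem. In these 3 loci the shoot tip and the stem lay between the microphyll and the rhizophore tip. The locus on contig 052056 (1-426) took another order, with 249 FPKM in the microphyll, against 1.60 in the rhizophore tip, and with its highest level, 678, in the stem. On contig 005108 (457-2239), the FPKM was 1972 in the microphyll, against 24.1 in the rhizophore tip, and the shoot tip level of 1979 was within the interval of the microphyll level (1890 to 2054).

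The other 4 of the 10 highest were on contigs 086385 (9-829), 046031 (8-1178), 041607 (38-781) and 043831 (8541-11592), between 173 and 562 FPKM in the microphyll, against 1.84 to 7.76 FPKM in the rhizophore tip. In all 10 loci, the shoot tip and the stem were both above the rhizophore tip. The shoot tip was above the microphyll in 2 of the 10 and the stem in 1. The rhizophore tip was thus the lowest of the 4 tissues in each of them. The rhizophore tip values rested on 16.0 to 784 implied fragments, and the microphyll values on at least 1332.

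The matched-span loci with the lowest differences were close to an FPKM of 1 in the microphyll in most cases. The locus on contig 073621 (1-737) had an FPKM of 0.662 in the microphyll (0.341 to 0.983), against 243 in the rhizophore tip (232 to 255), a ratio of rhizophore tip to microphyll of 368 (228 to 593). Its FPKM was 234 for the shoot tip and 8.97 for the stem. The locus was thus at a like level in the shoot tip and rhizophore tip libraries and low in the microphyll and the stem. On contig 067621 (7192-9191), the FPKM was 2.63 in the microphyll, against 472 in the rhizophore tip, with 205 for the shoot tip and 7.52 for the stem, where the lower bound was 0. The same order of high tips and low microphyll and stem was found on contig 036003 (1-673), with 0.716 FPKM in the microphyll, against 128 in the rhizophore tip, and with 130 for the shoot tip and 9.64 for the stem. Contig 043061 (4899-6492) had 0.883 FPKM in the microphyll, against 117 in the rhizophore tip, with 153 for the shoot tip and 14.97 for the stem. On contig 095041 (5189-6072), the FPKM was 0.686 in the microphyll, against 99.0 in the rhizophore tip, with 156 for the shoot tip and 2.15 for the stem. Contig 043055 (1-1112) had 0.687 FPKM in the microphyll, against 86.1 in the rhizophore tip, with 236 for the shoot tip and 14.6 for the stem. In the last 3 loci the shoot tip was above the rhizophore tip.

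Other loci among the 10 lowest did not share this order. The locus on contig 083439 (1473-1927) was high in the rhizophore tip only, with an FPKM of 11.9 in the microphyll, against 1242 in the rhizophore tip, while it was 6.60 for the shoot tip and 49.98 for the stem. On contig 062531 (329-1579), the FPKM was 18.6 in the microphyll, against 1545 in the rhizophore tip, with 236 for the shoot tip and 594 for the stem. Contig 103473 (5-1025) had 3.43 FPKM in the microphyll, against 292 in the rhizophore tip, with 180 for the shoot tip and 140 for the stem. On contig 049639 (2-2492), the FPKM was 1.08 in the microphyll, against 96.3 in the rhizophore tip, and the stem had the highest level, 140. In all 10 loci the stem was above the microphyll, in 9 below the rhizophore tip. The shoot tip was above the microphyll in 9 of the 10, with contig 083439 the exception, and above the rhizophore tip in 4. The microphyll values rested on 11 to 613 implied fragments. The differences ran between -7.20 and -5.55 for these 10 loci and between 5.94 and 7.38 for the 10 highest. All 20 loci kept their direction and a difference past the size under TPM, equal summed FPKM, the sum over loci of at least 300 bp and median-of-ratios factors. They were chosen for the widest differences, far past the size, so this followed largely from their choice. The log2 ratio of the scaling factors was at most 1.05, and in TPM the pseudocount also weighs more. The smallest size among the 10 lowest loci was 3.32 in TPM.

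**Figure D3:**
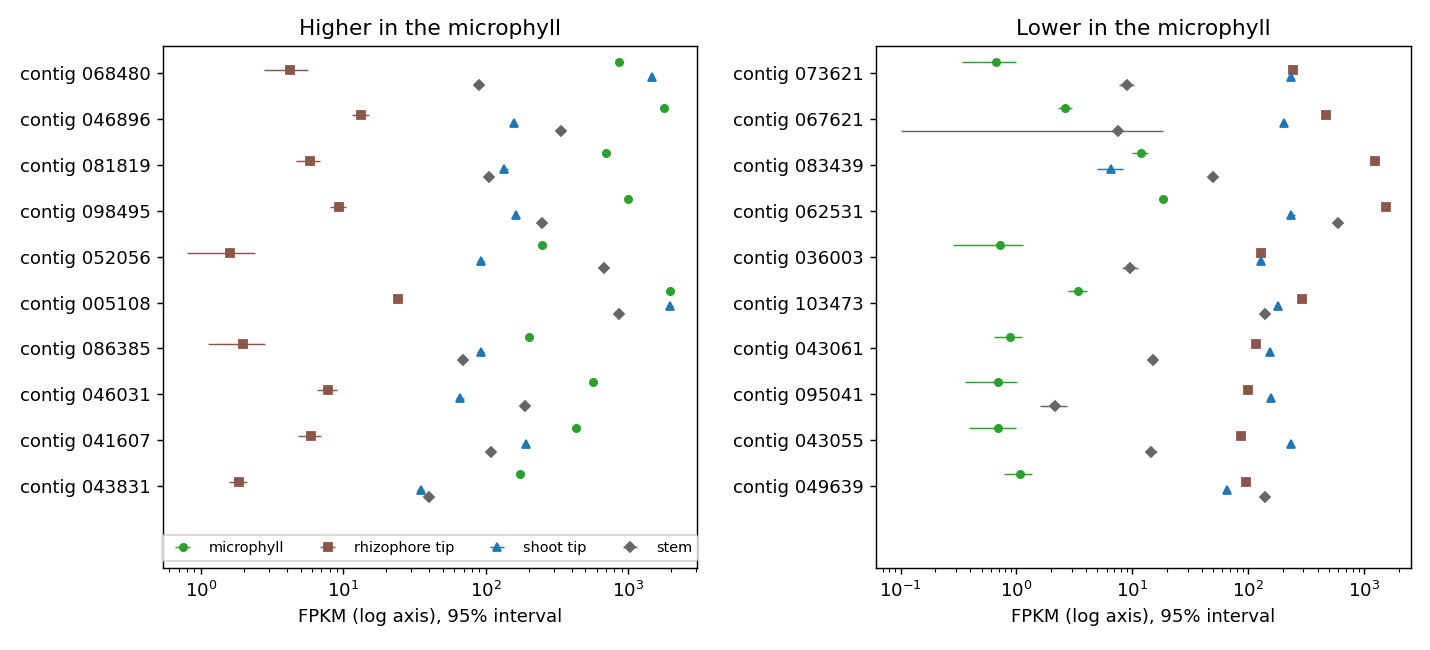
FPKM (x axis, log scale) in the microphyll, rhizophore tip, shoot tip and stem for the 10 matched-span loci with the highest (left) and the 10 with the lowest difference (right), 1 library per tissue. Bars are the 95% intervals of the deposited tables, and the bar of the stem on contig 067621, whose lower bound is 0, is drawn to 0.1. The rhizophore tip is the lowest of the 4 tissues in all 10 loci on the left, and on the right the shoot tip is above the microphyll in 9 of 10.

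Out of 23081 kept loci, the 2 organs shared 21 of their 100 most abundant and 433 of their 1000 most abundant. How many loci unrelated lists would share was not computed. The 10 loci with the highest FPKM held 9.88% of the summed FPKM of the kept loci in the microphyll and 9.85% in the rhizophore tip, and the 100 highest held 24.2% and 24.6%. The lists of 10 shared 0 loci. Some of the top kept loci have a short leading locus, as described above. Of the 100 most abundant microphyll loci, 63 were higher and 2 lower in the microphyll. Of the 100 most abundant rhizophore tip loci, 1 was higher and 61 were lower in the microphyll. A locus was placed in a list by its level in that library, so these directions are a description. Among matched-span loci, 1 of the 10 highest, 32 of the 100 highest and 567 of the 1000 highest were shared. In this set 48 of the microphyll's 100 were higher in the microphyll, and 34 of the rhizophore tip's 100 were lower.

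The most abundant matched-span locus of the microphyll lay on contig 063554 (2054-2573), with an FPKM of 25767 in the microphyll, against 2002 in the rhizophore tip. Its FPKM was 7692 for the shoot tip and 22049 for the stem, so it was abundant in all 4 tissues and lowest in the rhizophore tip. The next were contig 014765 (1-633), with 3151 FPKM in the microphyll, against 933 in the rhizophore tip, and contig 076596 (902-1453), with 2535 against 353 in the same order. The first of these had a difference of 1.75 and did not pass the size. Contig 023906 (235-1022) had 2476 FPKM in the microphyll, against 137 in the rhizophore tip, and contig 000272 (95-511) had 2378 in the microphyll, against 152 in the rhizophore tip. The shoot tip was also high at these 4 loci, between 1333 and 3028 FPKM.

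The 5 most abundant matched-span loci of the rhizophore tip were short, between 318 and 459 bp. Contig 073645 (1-384) had an FPKM of 594 in the microphyll, against 18458 in the rhizophore tip, with 2161 for the shoot tip and 271 for the stem. Contig 070269 (1-413) had an FPKM of 595 in the microphyll, against 18282 in the rhizophore tip, with 2328 for the shoot tip and 311 for the stem. The values of these 2 contigs were alike in every tissue, with a ratio of rhizophore tip to microphyll of 31.1 (30.3 to 31.9) and 30.7 (30.0 to 31.5). Whether they share sequence or reads was not tested, since no sequence was used here. Contig 093964 (1-373) had the same order of tissues, with 135 FPKM in the microphyll, against 3707 in the rhizophore tip, and with 432 for the shoot tip and 58.6 for the stem. Contigs 073271 (1-459) and 055044 (1-318) had 1068 and 311 FPKM in the microphyll, against 5648 and 3750 FPKM in the rhizophore tip.

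Other abundant loci were even between the organs. A total of 1089 kept loci reached 100 FPKM in both organs, of which 419 (38.5%) had a difference within 0.5 of 0. Among matched-span loci the number was 237 of 575 (41.2%). Contig 056893 (1-728) had an FPKM of 177.5 in the microphyll, against 177.3 in the rhizophore tip, with 143 for the shoot tip and 148 for the stem. Contig 102731 (352-1252) had 1167 FPKM in the microphyll, against 1176 in the rhizophore tip, with 950.2 for the shoot tip and 998 for the stem. Of the 237 even matched-span loci, 228 stayed within 0.5 when scaled to the sum over loci of at least 300 bp and 214 with median-of-ratios factors, but 0 did in TPM. The log2 ratio of the TPM factors was 1.05, so the 0 followed from choosing loci within 0.5 of 0.

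Differences past the size were more frequent in classes of higher FPKM. The class was set by the higher of the same 2 values that give the difference, so class and difference are not independent. Among matched-span loci whose higher FPKM was from 1 to under 10, 0.573% of 3316 were higher and 1.66% were lower in the microphyll. From 10 to under 100 FPKM the shares were 4.45% and 7.71% of 5889, and from 100 to under 1000 they were 15.4% and 9.81% of 1356. At 1000 FPKM and over, 26.6% of 79 loci were higher and 30.4% were lower. On the FPKM scale, lower loci outnumbered higher ones in 3 of these 4 classes, and from 100 to under 1000 FPKM higher loci outnumbered lower ones, also over all kept loci (19.0% and 14.4% of 2896). At low levels the pseudocount of 1 limits the difference, so the first class cannot be read as a lack of change. The shares varied less with length. Among matched-span loci, between 4.1% and 5.15% were higher and between 5.93% and 6.73% were lower in 4 classes of merged length.

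**Figure D4:**
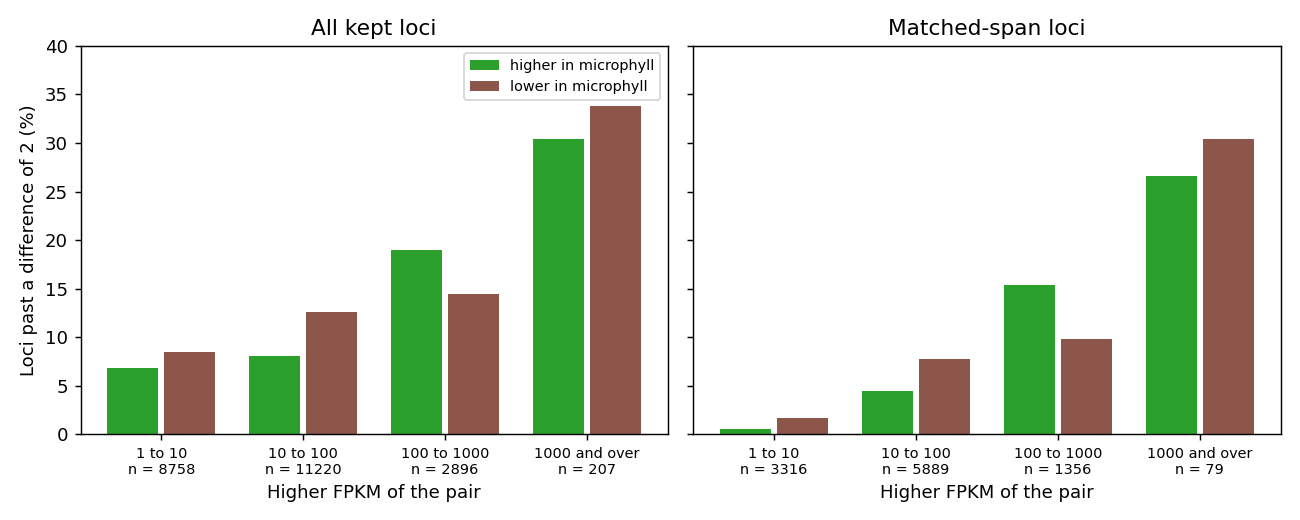
Share of loci (y axis, %) higher or lower in the microphyll by at least 2 on the log2(FPKM + 1) scale, in classes of the higher FPKM of the 2 organs (x axis, with the number of loci), for all kept loci (left) and matched-span loci (right). Both shares are lowest at 1 to 10 FPKM and highest at 1000 FPKM and over, where 26.6% and 30.4% of the matched-span loci lie past the size.

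Some loci were listed in only 1 of the 2 libraries. A locus that is not listed was not assembled there, which is not the same as having no reads, so no fold is given. In the microphyll only, 1814 kept loci were listed, with a median FPKM of 2.58, and 73.0% of them were under 5 FPKM. In the rhizophore tip only, 1964 were listed, with a median FPKM of 3.33 and 61.6% under 5 FPKM. Most loci of both kinds were thus low. Of the microphyll loci, 785 passed the size, and 484 of these were also 4-fold above the level that 11 fragments would give in the rhizophore tip. Of the rhizophore tip loci, 1060 passed the size, 812 of them with this floor in the microphyll. The level of 11 fragments is one below which the tables seldom list a locus.

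Most loci listed in only 1 of the 2 organs were also listed in the shoot tip or the stem. Of the 1814 loci listed in the microphyll and not in the rhizophore tip, 675 were listed in neither the shoot tip nor the stem, the shoot tip listed 917 and the stem 796. Of the 1964 listed in the rhizophore tip and not in the microphyll, 537 were listed in neither, and the shoot tip listed 1246 and the stem 970. The most abundant loci of at least 300 bp listed in the microphyll alone of all 4 tissues were on contig 102251 (5810-6603), with an FPKM of 414 (392 to 435), and on contig 102154 (2-823), with 337 (323 to 351). Contig 004580 (1926-2658) had an FPKM of 1491 in the rhizophore tip (1475 to 1507) and was listed in no other tissue. These loci were far above the floor and were assembled in 1 tissue. The locus on contig 047042 (697-1644) was not listed in the microphyll and had 985 FPKM in the rhizophore tip, with 559 for the shoot tip and 317 for the stem. Contig 099521 (486-942) had 256 FPKM in the microphyll and was not listed in the rhizophore tip, with 491 for the shoot tip and 313 for the stem. The last 2 loci were thus missing from the list of 1 organ and abundant in the other 3 tissues.

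The shoot tip and the stem, which the comparison did not use, were placed between the 2 organs at each locus. Position was 0 at the rhizophore tip level and 1 at the microphyll level on the log2(FPKM + 1) scale. The matched-span rule covered the microphyll and the rhizophore tip only. For the shoot tip and the stem, the FPKM was summed over listed loci of any span, and taken as 0 where none was listed. At the 511 matched-span loci higher in the microphyll, the median position was 0.49 for the shoot tip (quartiles 0.30 and 0.73) and 0.45 for the stem (0.28 and 0.64). The medians of both tissues thus lay near the midpoint on the FPKM scale, while single loci spread widely. At the 666 matched-span loci lower in the microphyll, the median position was 0.18 for the shoot tip (0.03 and 0.48) and 0.39 for the stem (0.08 and 0.74). The shoot tip was thus nearer to the rhizophore tip at most loci that were low in the microphyll.

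Counted by locus, the shoot tip was nearer to the microphyll than to the rhizophore tip at 247 of the 511 matched-span loci higher in the microphyll (48.3%) and at 158 of the 666 lower ones (23.7%). The stem was nearer to the microphyll at 221 of the 511 (43.2%) and at 270 of the 666 (40.5%). At matched-span loci within the size, the shoot tip was nearer to the microphyll at 39.7% of 4207 loci where the microphyll was above the rhizophore tip, and at 37.2% of 5256 where it was below. The stem was nearer to the microphyll at 34.0% of these 4207 loci and at 46.4% of these 5256. Over all kept loci, the shoot tip was nearer to the microphyll at 45.4% of the higher and 36.1% of the lower loci, and the stem at 45.0% and 51.5%. These shares depended on the scaling. With TPM, the shoot tip was nearer to the microphyll at 26.6% of the matched-span loci higher in the microphyll and at 32.8% of the lower ones, so that the order of the 2 directions turned, and the stem was nearer at 68.7% and 49.1%. With equal summed FPKM over the same loci, the shoot tip shares were 26.4% and 28.0%, and the stem shares 70.7% and 37.5%. With median-of-ratios factors the shoot tip share of the lower loci was 23.9%.

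**Figure D5:**
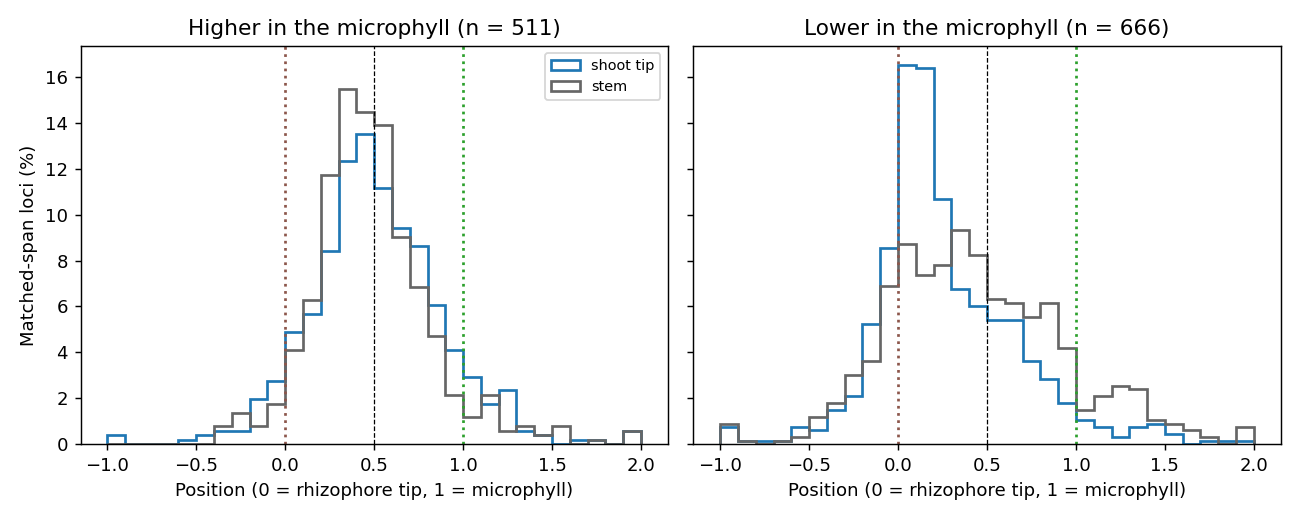
Position of the shoot tip and the stem between the rhizophore tip (0, dotted) and the microphyll (1, dotted) on the log2(FPKM + 1) scale (x axis) at the 511 matched-span loci higher in the microphyll (left) and the 666 lower (right), as a share of loci (y axis, %); the dashed line is the midpoint, and loci beyond -1 or 2 are counted in the end bins. At the lower loci the shoot tip has a median of 0.18, near the rhizophore tip, against 0.39 for the stem.

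All combinations occurred among the matched-span loci. At the loci higher in the microphyll, both other tissues were nearer to the microphyll at 114, the stem alone at 107, the shoot tip alone at 133 and neither at 157. At the loci lower in the microphyll, both were nearer to the microphyll at 91, the stem alone at 179, the shoot tip alone at 67 and neither at 329. The locus with the widest difference of each combination shows the range. Contig 024453 (1-356) had an FPKM of 1299 in the microphyll, against 43.5 in the rhizophore tip, with 4204 for the shoot tip and 55.9 for the stem. Contig 047646 (50-2871) had 633 FPKM in the microphyll, against 17.2 in the rhizophore tip, with 86.1 for the shoot tip and 87.3 for the stem, which puts both nearer to the rhizophore tip on the log2 scale. Contig 096951 (1-333) had 2.34 FPKM in the microphyll, against 120 in the rhizophore tip, with 27.0 in the stem. It was not listed in the shoot tip, whose level was therefore taken as 0 and counted as nearer to the microphyll.

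Among kept loci, those past the size were about as frequent beside a locus past it the same way as among all pair members. Among 2901 pairs of adjacent kept loci, both were higher in the microphyll in 16, both lower in 56, and they went opposite ways in 64. Of the neighbours of a lower locus, 14.7% were also lower, against 13.1% of all pair members. Of the neighbours of a higher locus, 6.69% were also higher, against 8.24% of all pair members. Each share was close to that of all pair members. In 505 pairs of matched-span loci, 3.28% of 61 neighbours of a lower locus were also lower, against 6.04% of pair members. Of 48 neighbours of a higher locus, 0% were also higher, against 4.75% of pair members. Contig 085601 was the contig with the most lower loci, with all 3 of its kept loci lower in the microphyll. The outer loci (4-2003 and 6007-7431) were not listed in the microphyll and had 46.1 and 446 FPKM in the rhizophore tip. Its middle locus (2161-5426) had 7.12 FPKM in the microphyll, against 112 in the rhizophore tip, and none of the 3 exceeded 15.02 FPKM in the shoot tip or the stem. On contig 100960, 3 of 4 kept loci were higher in the microphyll, the first of them (1621-2756) with 110.0 FPKM in the microphyll, against 20.1 in the rhizophore tip. Of the 2367 contigs with 2 or more kept loci, 74 held loci past the size in both directions. On contig 043009, the locus at 327-2288 had 32.9 FPKM in the microphyll and was not listed in the rhizophore tip, whereas the locus at 2353-3274 had 49.3 FPKM in the microphyll, against 3384 in the rhizophore tip.

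The loci nearest to a difference of 2 had like values. Contig 090424 (38-1689) had a difference just above 2, with 43.5 FPKM in the microphyll, against 10.1 in the rhizophore tip, and was counted as higher. Contig 049629 (1-2532) had a difference just under 2, with 41.5 FPKM in the microphyll, against 9.64 in the rhizophore tip, and was not counted. At the length minimum the loci were unlike. Contig 050593 (4-303), kept with a merged length of 300 bp, was not listed in the microphyll and had 17.7 FPKM in the rhizophore tip, whereas contig 103548 (3744-4042), left out with 299 bp, had 424 FPKM in the microphyll and was not listed in the rhizophore tip. Contig 042550 (13-484) was kept with an FPKM of 1.00 in the microphyll, and contig 088225 (5274-9319) was left out with an FPKM of 0.480 in the microphyll, against 0.999 in the rhizophore tip.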

How the data were processed

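RNA was extracted with Trizol from 4 tissues of *S. kraussiana*, 1 library each, and sequenced in read pairs. Read starts were trimmed, and alignment to contigs of an ABySS assembly was done with TopHat and quantification with Cufflinks, library by library. The deposited values are FPKM per locus as the authors obtained them, with bounds below and above, and the tables give no counts, gene names or strands. Each library has its own loci, so these were joined by overlap.

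Overlapping loci were merged, FPKM values summed per library (0 where none was listed), bounds combined as the root of summed squares, and loci filtered as described in the results. Python 3.11.15 with pandas 2.3.3, numpy 2.4.6 and scipy 1.17.1 was used. The computation was tested on simulated data, where most loci changed 8-fold at an FPKM of at least 10 were recovered. The simulation had Poisson noise only and the same spans in every library. It therefore did not cover listed loci under 300 bp or spans that differ between libraries. When changed loci were drawn over all levels, recovery was incomplete and lower for lowered than for raised loci, so the counts of loci past the size can miss changes at low FPKM. No test between tissues was possible, since each has 1 library. Fragments were implied from the bounds as the square of 2 FPKM over the distance to the upper bound. An interval of a ratio combines both intervals on the log scale. Positions are on the authors' contigs.

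The comparison, its rules and the lists were chosen with earlier results of these data known. The loci named are the 10 highest and 10 lowest differences among loci listed in both libraries, the 5 most different of those listed in 1, the 5 most abundant in each, the 5 most even, 1 for each combination of sides, contigs with most loci past the size, and the loci at the thresholds. The same rules were applied to matched-span loci, a set added after the values were seen. The text gives the matched-span loci and a few of the others. Alternatives covered the pseudocount, scaling, filters, size, listing and merging.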

Additional observations from a re-analysis of the deposited data

Results flagged for a closer look

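Differences past the same size were also found in loci that the length minimum left out. There were 4617 merged loci under 300 bp with an FPKM of at least 1 in the microphyll or the rhizophore tip. Of these, 1605 were higher in the microphyll by at least 2 and 1019 were lower. The shares among kept loci were smaller, 9.15% higher and 11.5% lower. In short listed loci a high FPKM can rest on few fragments, as described above. Most of the loci past the size were listed in 1 of the 2 libraries, so they had no second interval to compare. Of the 2280 listed in both, 137 were higher and 276 were lower in the microphyll with intervals apart, and the median difference was -0.19. Contig 103548 (3744-4042), 1 bp under the minimum, had an FPKM of 424 in the microphyll and was not listed in the rhizophore tip.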

How the results depend on the processing

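Each of the 7 results was recomputed under 23 alternatives, 6 of them (the matched-span set, the same set with TPM or with median-of-ratios factors, the removal of listed loci under 300 bp before merging, and equal summed FPKM over the same loci, for kept and matched-span loci) chosen after seeing the data. The number of loci higher in the microphyll (2113 of 23081) stayed within 1.5 times under 12. The rule compares counts, not shares, and the sets differ in size. Matched-span loci with equal summed FPKM (1476 of 10640) were among the 12, although their share of higher loci was larger than in the main result. It was 3430 with a pseudocount of 0.1 and 1024 with 5, 1337 at a merged length of at least 600 bp and 3718 with no minimum, 5406 and 837 at a difference of at least 1 and 3, and 1328 among loci listed in both libraries, and 4411 with equal summed FPKM. In the matched-span set it was 511 of 10640, with TPM 850 of 8803 and with median-of-ratios factors 583 of 10633. The number of lower loci (2649) stayed within 1.5 times under 13. It was 1207 with a pseudocount of 5, 588 with TPM, 6472 and 1205 at a difference of 1 and 3, 1589 among loci listed in both, 1505 with equal summed FPKM, and 666, 116 (TPM), 570 (median-of-ratios factors) and 232 (equal summed FPKM) in the matched-span set. The median difference (-0.13) reversed with TPM, to 0.72 over kept loci and 0.68 in the matched-span set, and with equal summed FPKM, to 0.79 and 0.76. It was -0.085 with a pseudocount of 5, -0.085 scaled to loci of at least 300 bp, -0.0044 with median-of-ratios factors, -0.17 at an FPKM of at least 10, -0.16 at 600 bp, -0.078 with no minimum length, -0.17 with at most 1 locus per library, and -0.16 and -0.046 in the matched-span set with FPKM and with median-of-ratios factors. The cause of the other changes was not tested beyond what each setting removes.

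The share of higher loci with the stem nearer to the microphyll (45.0%) was 38.5% with a pseudocount of 5, 63.1% with TPM, 41.8% scaled to loci of at least 300 bp, 38.0% with no minimum length, 37.9% and 49.5% at a difference of 1 and 3, 42.0% with the listing floor of 11 fragments, 41.7% with short listed loci removed, 62.4% with equal summed FPKM, and 68.7% (TPM) and 70.7% (equal summed FPKM) in the matched-span set. For lower loci (51.5%) it was 47.6% and 56.3% with a pseudocount of 0.1 and 5, 53.7% scaled to loci of at least 300 bp, 48.4% at an FPKM of at least 10, 54.6% with no minimum length, 48.1% and 56.5% at a difference of 1 and 3, 44.7% listed in both, 46.8% with equal summed FPKM, and 40.5%, 49.1% (TPM), 39.5% (median-of-ratios factors) and 37.5% (equal summed FPKM) in the matched-span set. For the shoot tip, the share of higher loci (45.4%) was 27.9% with TPM, 47.6% at 600 bp, 41.3% with no minimum length, 38.5% and 49.0% at a difference of 1 and 3, 29.2% with equal summed FPKM, and 48.3%, 26.6% (TPM) and 26.4% (equal summed FPKM) in the matched-span set. The share of lower loci (36.1%) was 40.3% with a pseudocount of 5, 48.6% with TPM, 34.0% at 600 bp, 39.9% with no minimum length, 39.3% at a difference of 3, 32.9% listed in both, 39.7% with equal summed FPKM, and 23.7%, 32.8% (TPM), 23.9% (median-of-ratios factors) and 28.0% (equal summed FPKM) in the matched-span set. No paired analysis was possible because no tissue was sequenced more than once, and no library could be left out. Depth limits the low loci most, since a locus at an FPKM near 1 rests on few fragments.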
